A study of Mus musculus with 16 samples.

Results

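The H3K27ac-marked regions around Myb, Runx1 and Gata2, genes of 3 transcription factors of blood stem and progenitor cells, were followed through mouse dendritic cell development. The regions were those of 4 deposited lists of differential H3K27ac peaks that overlapped windows of the mm9 mouse genome at chr10:20840000-21000000 for Myb with its upstream enhancers, at chr16:92600000-92830000 for Runx1, and at chr6:88140000-88165000 for Gata2. They numbered 197 of the 273958 regions listed, with 51 in the Myb window, 142 in the Runx1 window and 4 in the Gata2 window. The same stretch of DNA can appear in several lists, and merging overlapping or touching regions gave 16 separate elements at Myb, 36 at Runx1 and 4 at Gata2.

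The study measured H3K27ac by chromatin immunoprecipitation and sequencing in sorted cells of C57BL/6 mice, with 2 libraries for each of 4 cell types. The lists set common dendritic cell progenitors (CDP) against multipotent progenitors (MPP), classical dendritic cells (cDC) against CDP, plasmacytoid dendritic cells (pDC) against CDP, and pDC against cDC. The labels name no genotype or treatment beyond the strain, and give no age, sex, culture condition or animal of origin, so the p-values measure only the spread between these libraries. Each list gives 1 scaled signal per region and library with no replicate number, so values are given in the listed order, and a library is identified as the first-listed or the second-listed of its cell type. The lists were scaled separately, and levels are compared only within a list.

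H3K27ac is an acetyl mark on histone H3 that is found at active promoters and enhancers. Gata2 is a zinc finger factor needed for the maintenance of blood stem cells. Runx1 binds DNA as the alpha subunit of core binding factor, is needed for the emergence of blood stem cells in the embryo, and is transcribed from a distal and a proximal promoter. Myb is needed for definitive blood formation and is known for its high expression in immature blood cells. Myb transcription depends on enhancers spread over a long stretch upstream of the gene. MPP give rise to several blood lineages. CDP are committed to the dendritic lineage, cDC present antigen to T cells, and pDC are known for their production of type I interferon.

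The summed signal over all autosomal regions of a list ranged from 38077720 to 69936653 per library, and the read depth behind it is unknown. Scaling the libraries of a list to equal totals shifts the mean difference in log2 signal of a region by about 0.13 for CDP over MPP, by 0.10 for cDC over CDP, by -0.30 for pDC over CDP and by -0.48 for pDC over cDC, and ratios of window sums, which compare group means, are given below on both scales and move by similar but not equal amounts. A region is said to have risen or fallen where limma, fitted on log2(signal + 1) across every region of its list, gave a Benjamini-Hochberg adjusted p under 0.05 over that list. limma draws the variance of each region toward that of its whole list, with a weight that differs by list. Its prior degrees of freedom were 18.0 for CDP over MPP, 32.3 for cDC over CDP and 4.85 for pDC over CDP. Adjusted p-values are therefore not comparable between lists. The lists hold only regions that the authors gave as differential peaks of the same libraries. Some had a weak deposited p, such as a -log10 p of 0.45 at chr10:20873501-20873700 between CDP and MPP. The share of all regions of a list that passed is therefore given beside each count of the main fit. Other settings, and leaving out a library, change that share too, so a changed count is not by itself particular to these windows. Absence of a region from a list does not show equal signal. For a single window total, the smallest two-sided p of an exact permutation test of 2 libraries against 2 is 0.33, and it could not reach 0.05.

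Promoter sequences from RefSeq (GRCm38.p6, the 250 bases before the start, written on the strand of the gene) are shown first, because the 3 windows take their names from these genes and the promoters differ in base composition and in letters that these factors bind. The letters searched on both strands were GATAA for Gata2, AACNG for Myb and TGTGGT for Runx1. Capitals mark AACNG or its reverse complement. Positions of the starts in mm9 were not determined, so no promoter is assigned to an mm9 region here.
Gata2 upstream promoter, chr6:88193641-88193890, forward strand: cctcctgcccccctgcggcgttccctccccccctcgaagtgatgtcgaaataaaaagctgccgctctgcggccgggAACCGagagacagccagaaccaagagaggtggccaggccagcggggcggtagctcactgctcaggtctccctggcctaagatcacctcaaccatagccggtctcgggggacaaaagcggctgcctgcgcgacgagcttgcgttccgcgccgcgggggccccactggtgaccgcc
Myb promoter, chr10:21160985-21161234, reverse strand: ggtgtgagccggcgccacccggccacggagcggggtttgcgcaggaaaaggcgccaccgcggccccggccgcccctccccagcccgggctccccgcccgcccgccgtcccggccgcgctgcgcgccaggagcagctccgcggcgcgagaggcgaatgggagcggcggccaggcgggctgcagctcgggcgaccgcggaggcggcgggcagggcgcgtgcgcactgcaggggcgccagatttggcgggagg
Runx1 distal promoter, chr16:92826075-92826324, reverse strand: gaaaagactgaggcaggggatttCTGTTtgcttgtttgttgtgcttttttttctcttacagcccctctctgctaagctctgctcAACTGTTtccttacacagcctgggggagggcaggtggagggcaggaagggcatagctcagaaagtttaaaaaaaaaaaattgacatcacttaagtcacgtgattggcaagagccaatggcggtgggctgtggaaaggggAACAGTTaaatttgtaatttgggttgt
Runx1 proximal promoter, chr16:92697330-92697579, reverse strand: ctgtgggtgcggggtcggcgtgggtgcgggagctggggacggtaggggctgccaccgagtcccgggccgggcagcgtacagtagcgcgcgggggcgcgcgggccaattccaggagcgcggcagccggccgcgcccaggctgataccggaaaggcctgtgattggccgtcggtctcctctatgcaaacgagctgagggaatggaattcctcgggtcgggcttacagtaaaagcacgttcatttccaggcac
The distal Runx1 promoter held 5 AACNG matches, some of which overlap each other on opposite strands, at a GC content of 45.6%. The proximal Runx1 promoter and the Myb promoter held none, at 67.6% and 81.2% GC. The upstream Gata2 promoter held 1 match at 67.2% GC. Among 32841 mouse promoters of the same length, 74.2% held AACNG, 22.6% held GATAA and 14% held TGTGGT, and none of the promoters printed held either of the last 2 motifs. A match of letters is a description and not a binding site. In the same annotation Gata2 lies between Rpn1 and Dnajb8, Myb between Ahi1 and Hbs1l, and Runx1 between Clic6 and Setd4.

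At Gata2, H3K27ac signal fell in CDP at each of the 4 listed regions. Summed over the 7.35 kb that the regions cover, the signal was 256 and 93 in the CDP libraries versus 3823 and 3534 in the MPP libraries. Both CDP libraries lay far below both MPP libraries, and the mean was 21.0-fold higher in MPP. The log2 ratio of CDP over MPP was -4.39 with a pooled SD of 0.73 (n = 2 libraries each), and -4.21 with libraries at equal totals. Per kb the mean signal was 23.7 in CDP and 500.5 in MPP. The 2 CDP libraries differed from each other by a larger factor than the 2 MPP libraries did, and without the first-listed CDP library the log2 ratio was -5.29.

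The region at chr6:88143651-88145450 had a signal of 65 and 38 in CDP, compared with 1203 and 837 in MPP. The region at chr6:88146151-88147850 had 71 and 15 in CDP versus 1015 and 694 in MPP. At both positions the mean was 19.4-fold higher in MPP. Further along, chr6:88148651-88149800 had 24 and 4 in CDP, compared with 432 and 551 in MPP. At chr6:88151451-88154150, which at 2.7 kb is the longest of the 4, the signal was 96 and 36 in CDP versus 1173 and 1452 in MPP. No CDP library came near an MPP library at any of these regions.

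By limma with Benjamini-Hochberg adjustment, the log2 ratios of CDP over MPP at Gata2 ran from -4.31 to -5.45. Adjusted p was 5.43e-07 for the first region, 5.82e-06 for the second, 1.12e-05 for the third, which had the largest ratio (SE 0.65), and 6.37e-07 for the fourth. All 4 of 4 regions passed as lower in CDP, where 11% of the 60816 regions of the list did. Among all regions of that list, 0.483% had a ratio at least as low as the least changed of the 4, and 0.164% as low as the most changed. The 4 calls also held when each library was left out in turn, when libraries were set to equal totals or medians, and with pseudocounts of 0.5 and 5.

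The lists of cDC against CDP, pDC against CDP and pDC against cDC held no region in the Gata2 window. Signal at Gata2 in cDC and pDC is therefore not given by these files. Just outside the window, 22.7 kb before its start, chr6:88115051-88117300 had 91 and 63 in CDP, compared with 1862 and 1462 in MPP, a mean 21.3-fold higher in MPP. That region is not counted among the 4, and which gene it belongs to was not determined.

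**Figure D1:**
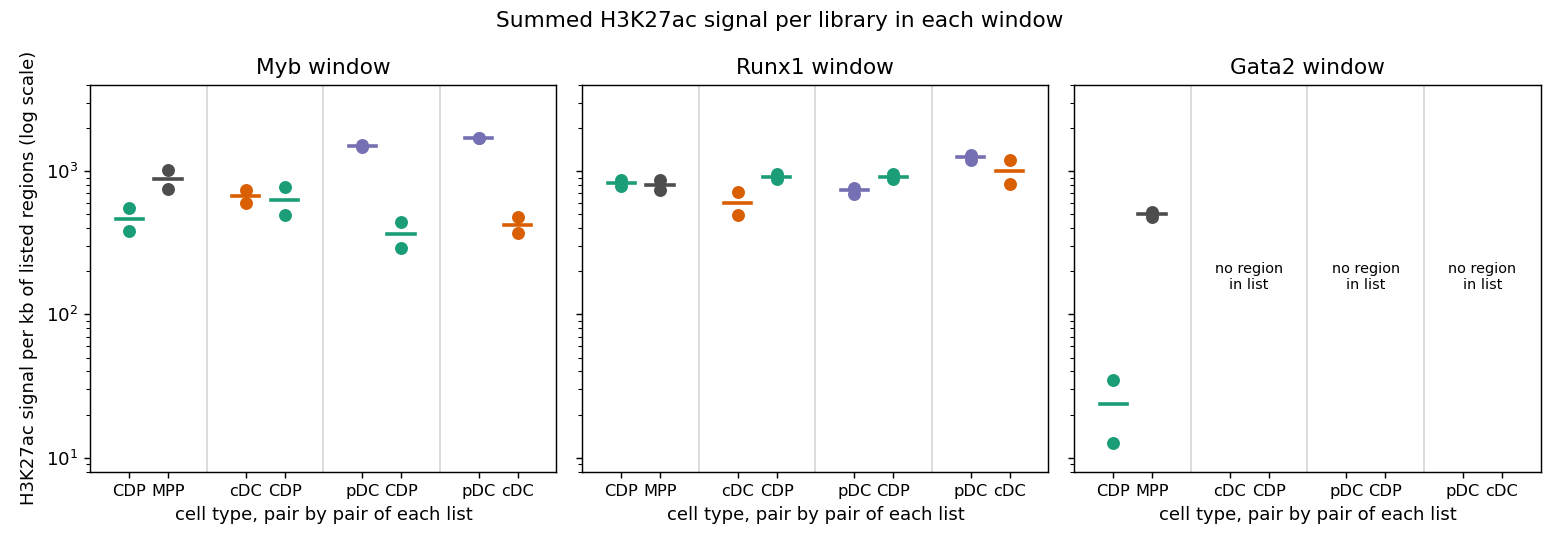
Summed H3K27ac signal per kb of listed regions (log scale) in each window, with 1 point per library and a bar at the mean of the 2 libraries, for the 2 cell types of each list. At Gata2 the CDP libraries lie far below the MPP libraries and the other lists have no region, at Myb both pDC libraries lie above their CDP and cDC counterparts, and at Runx1 the cell types lie close together.

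At Myb, summed H3K27ac signal was lower in CDP than in MPP, did not separate cDC from CDP, and was higher in pDC than in CDP or cDC. Over 14.4 kb the sums were 5493 and 7917 in CDP versus 14628 and 10893 in MPP. The libraries did not overlap, and the log2 ratio was -0.93 with a pooled SD of 0.34, or -0.80 at equal totals. Over 12.05 kb they were 7174 and 8951 in cDC, compared with 5993 and 9269 in CDP. Here the 2 cDC libraries lay between the 2 CDP libraries, and the log2 ratio of 0.08 was smaller than its pooled SD of 0.35. At equal totals it was 0.19, and the libraries still overlapped. Leaving out the first-listed CDP library gave -0.20, and leaving out the second-listed cDC library gave -0.09.

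In pDC the Myb window held 29485 and 30201 over 19.95 kb versus 5789 and 8825 in CDP. The libraries did not overlap, with a log2 ratio of 2.03, a pooled SD of 0.30 and a 4.08-fold higher mean in pDC. Set against cDC, pDC had 35630 and 35872 over 21.0 kb and cDC had 7738 and 10009. This was a 4.03-fold higher mean in pDC, with a log2 ratio of 2.01 and a pooled SD of 0.19. At equal totals the 2 log2 ratios were 1.75 and 1.54. The comparisons of cDC and of pDC with CDP use the same CDP libraries.

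The broadest Myb region had lower signal in CDP but did not pass the test. It spans 6.0 kb at chr10:20875751-20881750 and had 3757 and 5775 in CDP, compared with 10762 and 7162 in MPP. Both CDP libraries were below both MPP libraries, at a log2 ratio of -0.91 (SE 0.35, limma adjusted p = 0.0713). With libraries at equal totals the log2 ratio was -0.78 and the adjusted p 0.00917. By total signal this is 1 of the strongest regions of the whole list, where 0.355% of regions had as much. Signals are totals over a region and not per kb, and the median length in the list was 550 bp.

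Of the 15 Myb regions in the list of CDP against MPP, 5 fell and none rose by limma, beside 11% and 8.42% of the whole list. The median log2 ratio of the 15 was -0.91, with -0.11 over the list, and 12 of the 15 had both CDP libraries below both MPP libraries (32.2% of all regions). The largest fall was at chr10:20906501-20907250, with 109 and 48 in CDP versus 451 and 420 in MPP (log2 ratio -2.57, SE 0.41, adjusted p = 0.000198). At chr10:20865801-20867600 the signal was 268 and 133 in CDP, compared with 658 and 933 in MPP (log2 ratio -2.05, adjusted p = 0.000415). CDP lay below MPP in every library at both places. Without the second-listed MPP library the log2 ratio at chr10:20865801-20867600 was -1.80 and its call was lost. Fewer of the 15 regions passed without the second-listed CDP library or either MPP library, as fewer did over the whole list. Without the first-listed MPP library a region not called before passed as higher in CDP.

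The other 3 regions that fell at Myb were weak, and are named after their values were seen because they passed. They lie at chr10:20868001-20868450 with 57 and 28 in CDP versus 154 and 117 in MPP, at chr10:20872051-20872500 with 47 and 13 in CDP, compared with 110 and 154 in MPP, and at chr10:20971751-20972250 with 97 and 67 in CDP versus 265 and 162 in MPP. Their log2 ratios were -1.72, -2.34 and -1.35. CDP was below MPP in both libraries of each. None of these 3 passed at equal totals, with adjusted p from 0.0601 to 0.0673, or when the second-listed CDP library or either MPP library was left out.

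In cDC, 2 of 13 Myb regions rose over CDP and none fell by limma, beside 7.64% and 14.4% of all regions of that list. At chr10:20911701-20914500 the signal was 1478 and 1993 in cDC, compared with 383 and 486 in CDP (log2 ratio 1.99, SE 0.38, adjusted p = 0.000235), a 3.99-fold higher mean. Both cDC libraries were well above both CDP libraries there. The weaker region at chr10:20918351-20918750 had 86 and 153 in cDC versus 16 and 0 in CDP. Its log2 ratio of 4.81 depends on the pseudocount, since 1 CDP library is listed at 0, and its adjusted p of 0.00184 became 0.0739 without the first-listed cDC library, 0.0964 without the second-listed cDC library and 0.0518 without the second-listed CDP library. If the first-listed cDC or the second-listed CDP library was left out, fewer Myb regions passed, as fewer did over the whole list. Without the second-listed cDC library some Myb regions passed as lower in cDC. At equal totals 3 passed as higher and 1 as lower, so that the absence of falls depends on the setting.

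Regions on either side of the broadest Myb element differed in direction in cDC. RefSeq places Myb on the reverse strand, so higher coordinates lie in the upstream direction. The 5 elements listed on the low-coordinate side had sums of 496 and 497 in cDC, compared with 839 and 1082 in CDP. The broadest element had 3570 and 4364 in cDC versus 4202 and 6512 in CDP. The 4 elements listed on the high-coordinate side had 3108 and 4090 in cDC, compared with 952 and 1675 in CDP. Thus cDC libraries were lower on the low-coordinate side, overlapped CDP at the broadest element, and were higher on the high-coordinate side. The high-coordinate side held 43.3% and 45.7% of the window's signal in cDC, compared with 15.9% and 18.1% in CDP, a share that does not depend on how a library is scaled. This grouping was made after the values were seen and has no test.

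**Figure D2:**
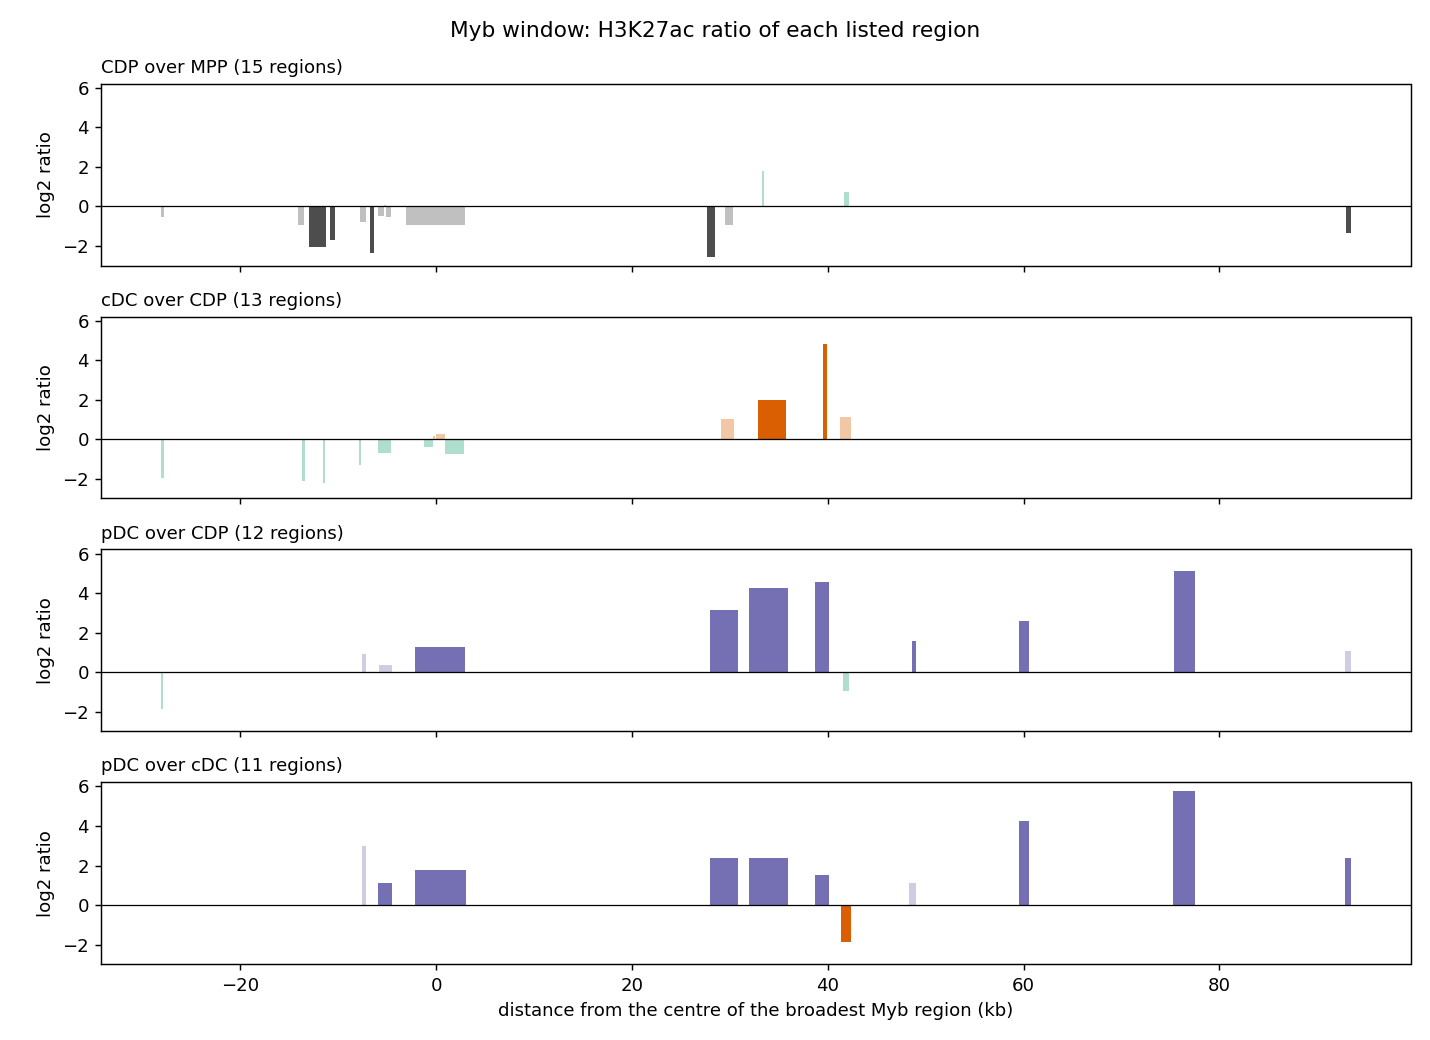
log2 ratio of H3K27ac signal (vertical axis) of each listed region of the Myb window against its distance in kb from the centre of the broadest region (horizontal axis), 1 panel per list. Bar width is the length of the region, colour gives the cell type with the higher signal (green CDP, grey MPP, orange cDC, purple pDC), and full colour marks limma adjusted p under 0.05. For pDC the bars at and beyond 0 kb point up, with 1 small exception near 42 kb.

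The rise in pDC was steepest on the high-coordinate side of Myb. Of 12 regions in the list of pDC against CDP, 7 rose and none fell by limma, beside 25.2% and 19.7% of all regions. Both pDC libraries were above both CDP libraries at 9 of the 12 (39.7% of all regions), and their median log2 ratio was 1.43, with 0.03 over the list. The 8 high-coordinate elements together had 16796 and 17235 in pDC versus 1249 and 1884 in CDP, a 10.9-fold higher mean. The broadest element alone had 12017 and 11802 in pDC, compared with 3970 and 6126 in CDP, a 2.36-fold higher mean. Both pDC libraries were above both CDP libraries in each sum. High-coordinate elements held 57.0% and 57.1% of the window's signal in pDC versus 21.6% and 21.3% in CDP.

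The strongest of them, chr10:20910751-20914700, is 3.95 kb long and had 7874 and 8164 in pDC versus 366 and 473 in CDP. The mean was 19.1-fold higher in pDC (log2 ratio 4.26, SE 0.20, adjusted p = 0.000145). In the list of pDC against CDP, where the median length was 600 bp, 1.03% of regions had as much total signal. Its neighbour at chr10:20906801-20909650 had 4989 and 4805 in pDC, compared with 421 and 718 in CDP (log2 ratio 3.15, SE 0.28, adjusted p = 0.000323). The 2 pDC libraries were nearly equal at both, and far above CDP.

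Farther out, 76.4 kb from the centre of the broadest element, chr10:20954151-20956300 had 2476 and 2534 in pDC versus 44 and 116 in CDP. This was the largest ratio of the Myb window against CDP, a 30.9-fold higher mean (log2 ratio 5.11, SE 0.45, adjusted p = 0.000331). At chr10:20917551-20918950 the signal was 554 and 833 in pDC, compared with 18 and 43 in CDP (log2 ratio 4.56, adjusted p = 0.000788). At chr10:20938351-20939400 it was 428 and 405 in pDC versus 95 and 48 in CDP (log2 ratio 2.61, adjusted p = 0.00344). Groups did not overlap at any of these. The small region at chr10:20927401-20927850 had 136 and 163 in pDC, compared with 41 and 58 in CDP (adjusted p = 0.0297).

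The broadest region, listed here as chr10:20876701-20881800, passed against CDP with a log2 ratio of 1.27 (SE 0.22, adjusted p = 0.00408). Without the first-listed pDC library its adjusted p was 0.0861, and without the second-listed pDC library 0.0809. The call at chr10:20938351-20939400 was also lost without either pDC library (adjusted p 0.0602 and 0.0535), and that at chr10:20927401-20927850 was lost without any of the 4 libraries (0.0583 to 0.151). Without either pDC library fewer of the 12 regions passed, as fewer did over the whole list. All 7 calls held at equal totals, where 1 further region passed as lower in pDC.

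Against cDC, 8 of 11 Myb regions rose in pDC and 1 fell by limma, beside 23.3% and 9.32% of all regions of the list. At 10 of the 11 both pDC libraries were above both cDC libraries (41.8% of all regions), with a median log2 ratio of 2.36 where the whole list had 0.22. At chr10:20954101-20956300 the signal was 2984 and 2997 in pDC versus 39 and 72 in cDC, a 52.9-fold higher mean (log2 ratio 5.79, SE 0.40, adjusted p = 0.000199), and 1.21% of the regions of the list had a ratio as high. At chr10:20938301-20939400 it was 549 and 514 in pDC, compared with 24 and 31 in cDC, 18.7-fold higher (log2 ratio 4.23, adjusted p = 0.00043). Neither element was listed between cDC and CDP. Here pDC stood apart from cDC in both libraries.

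The 2 strongest high-coordinate regions, which had signal in cDC as well, were higher in pDC by smaller factors. The region at chr10:20910751-20914750 had 9585 and 9615 in pDC versus 1571 and 2155 in cDC, a 5.15-fold higher mean (adjusted p = 0.000469). That at chr10:20906751-20909650 had 5916 and 5717 in pDC, compared with 841 and 1485 in cDC, a 5.0-fold higher mean (adjusted p = 0.000907). The broadest region, chr10:20876601-20881850, had 14329 and 14030 in pDC versus 3738 and 4596 in cDC, 3.40-fold higher (adjusted p = 0.00131). No pDC library overlapped a cDC library at any of the 3. The call of the broadest region was lost without the first-listed pDC library (adjusted p = 0.0736) and without the second-listed (0.0669).

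A single Myb region ran the other way. At chr10:20920151-20921150 the signal was 250 and 142 in pDC, compared with 722 and 635 in cDC, so that it fell in pDC (log2 ratio -1.84, SE 0.41, adjusted p = 0.0081). It lies 41.8 kb from the centre of the broadest element. Of the listed regions on either side, chr10:20917551-20918950 rose in pDC and chr10:20927151-20927850, with 243 and 275 in pDC versus 88 and 159 in cDC, did not pass (adjusted p = 0.107). Its call was lost without the second-listed pDC library (adjusted p = 0.107), or the first-listed of cDC (0.0605).

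The remaining 3 regions that rose in pDC over cDC, also named after their values were seen, depended more on single libraries. At chr10:20917551-20918950 the signal was 662 and 965 in pDC versus 228 and 343 in cDC (adjusted p = 0.0152), lost without the second-listed pDC library (0.214) or the first-listed cDC library (0.0622). At chr10:20971601-20972250 it was 256 and 283 in pDC, compared with 33 and 80 in cDC (adjusted p = 0.0122), lost without either pDC library (0.0676 and 0.088). At chr10:20872901-20874250 it was 707 and 1113 in pDC versus 448 and 376 in cDC (adjusted p = 0.0412), lost without any of the 4 libraries (0.073 to 0.48) and at equal totals (0.156). All 3 had separate groups. Without the second-listed pDC library fewer of the 11 regions passed, as fewer did over the whole list.

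**Figure D3:**
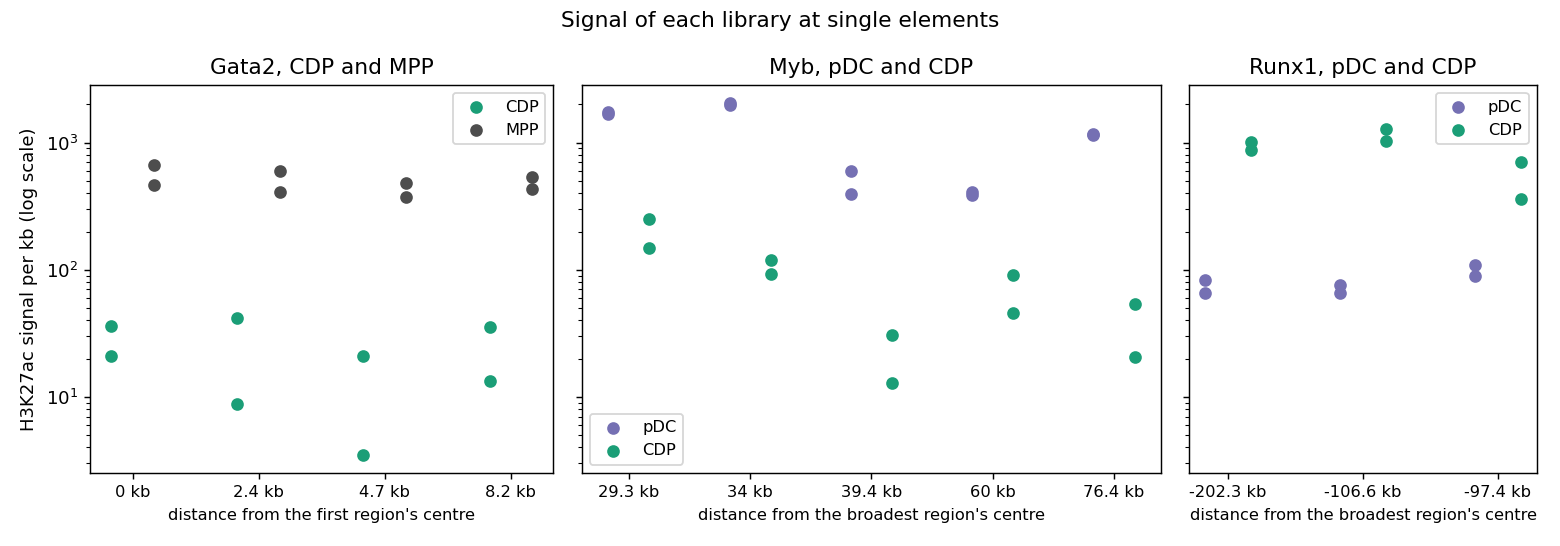
H3K27ac signal per kb (log scale) of each library at the 4 Gata2 elements in CDP and MPP, at 5 Myb elements in pDC and CDP, and at 3 Runx1 elements in pDC and CDP, placed by distance in kb from the first Gata2 region or from the broadest region of the window. Gata2 points of CDP lie below those of MPP, Myb points of pDC lie above those of CDP, and Runx1 points of pDC lie below those of CDP, with no overlap at any element. The Myb and Runx1 elements were picked for their large differences, so the lack of overlap follows from that choice. Other elements of both windows overlapped or ran the other way.

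At Runx1 the summed signal was lower in cDC and in pDC than in CDP, while single elements changed in opposite directions. Over 40.25 kb the sums were 31522 and 34678 in CDP, compared with 34750 and 29508 in MPP. These overlapped, and the log2 ratio of 0.04 was below its pooled SD of 0.14. At equal totals the CDP libraries were both above the MPP libraries, at a log2 ratio of 0.18. Leaving out the second-listed CDP library gave -0.03, and leaving out the second-listed MPP library gave -0.07. Over 46.15 kb they were 22731 and 32963 in cDC versus 40681 and 43980 in CDP, a mean 1.52-fold higher in CDP. Both cDC libraries were lower, but the gap between them was large, with a log2 ratio of -0.60 and a pooled SD of 0.27, or -0.53 at equal totals. The log2 ratio was -0.90 without the second-listed cDC library.

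In pDC the Runx1 window held 27749 and 30563 over 39.75 kb, compared with 34786 and 38009 in CDP. The groups did not overlap, with a mean 1.25-fold higher in CDP and a log2 ratio of -0.32 (pooled SD 0.09), or -0.62 at equal totals. Over 25.85 kb, pDC had 30995 and 33550 versus 20938 and 30879 in cDC. The log2 ratio of 0.32 (pooled SD 0.29) was 0.62 without the second-listed cDC library. It turned to -0.14 at equal totals, with both pDC libraries then below both cDC libraries, so these files give no firm direction for the Runx1 sum between pDC and cDC.

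A group of 3 strong Runx1 elements fell in both cDC and pDC. They were not the only ones, since weaker regions given below also passed as lower in both. The largest loss was at chr16:92714901-92719800, a 4.9 kb region with 173 and 321 in cDC, compared with 5335 and 6391 in CDP. The mean was 23.6-fold higher in CDP (log2 ratio -4.62, SE 0.38, adjusted p = 4.06e-10). In the list of pDC against CDP the same place, chr16:92714901-92719300, had 288 and 334 in pDC versus 4564 and 5593 in CDP, 16.3-fold higher in CDP (log2 ratio -4.02, SE 0.21, adjusted p = 0.000145). No library of either mature cell type came near a CDP library.

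The element at chr16:92620051-92622850 had 201 and 160 in cDC, compared with 3111 and 2652 in CDP, 15.9-fold higher in CDP (log2 ratio -3.99, adjusted p = 7.92e-09). At chr16:92620051-92622750 it had 178 and 225 in pDC versus 2711 and 2349 in CDP, 12.5-fold higher in CDP (log2 ratio -3.65, adjusted p = 0.000174). The mature cells lay far below CDP in both lists. The element at chr16:92724401-92728650 had 166 and 232 in cDC, compared with 3314 and 1687 in CDP (log2 ratio -3.58, adjusted p = 1.24e-07). At chr16:92724451-92728550 it had 368 and 447 in pDC versus 2878 and 1473 in CDP (log2 ratio -2.34, adjusted p = 0.00201). The CDP libraries differed from each other most at this element, and both were above both mature cell types.

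Together these 3 elements made up 2.38% and 2.16% of the window's signal in cDC, whereas in CDP, in the same list, they made up 28.9% and 24.4%. In the list with pDC they made up 3.01% and 3.29% in pDC versus 29.2% and 24.8% in CDP. None of the 3 was listed between pDC and cDC. The cDC and pDC comparisons share their CDP libraries, so they are not independent of each other. The 3 elements were grouped after their values were seen.

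Before the CDP stage the 3 elements did not move together. In the list of CDP against MPP, chr16:92714801-92719800 had 4231 and 5376 in CDP, compared with 7871 and 7537 in MPP (log2 ratio -0.69, adjusted p = 0.147), and chr16:92619951-92623150 had 2693 and 2288 in CDP versus 5001 and 3735 in MPP (log2 ratio -0.80, adjusted p = 0.0728). Both had lower CDP values in each library, and at equal totals their adjusted p-values were 0.016 and 0.0237. Part of the other element, chr16:92726651-92728450, rose in CDP with 1447 and 702, compared with 407 and 443 in MPP (log2 ratio 1.25, SE 0.33, adjusted p = 0.0117). That call was lost without the first-listed CDP library (adjusted p = 0.247), the first-listed MPP library (0.114) or the second-listed MPP library (0.0964).

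**Figure D4:**
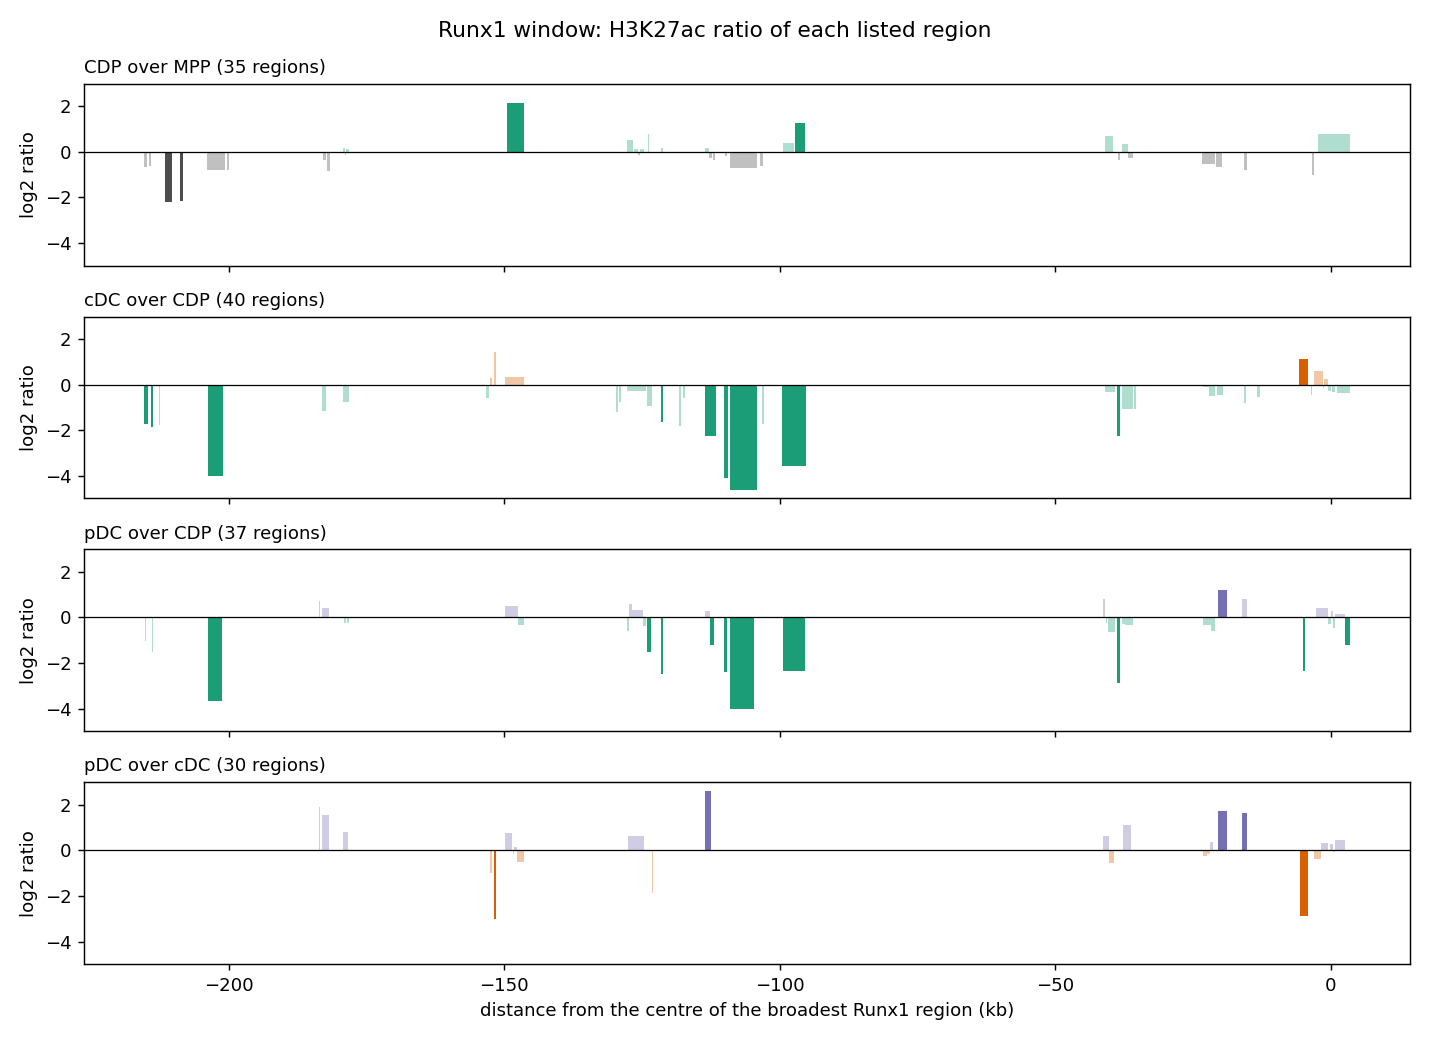
log2 ratio of H3K27ac signal (vertical axis) of each listed region of the Runx1 window against its distance in kb from the centre of the broadest region (horizontal axis), 1 panel per list, with bar width, colours and shading as in the plot of Myb ratios. The same elements point down for cDC and for pDC near -202, -107 and -97 kb, and CDP is above MPP near -148 kb.

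Of the 35 Runx1 regions in the list of CDP against MPP, 2 rose and 2 fell by limma. These shares stood beside 8.42% and 11% of all regions, and the median log2 ratio was -0.28. The clearest rise was at chr16:92674401-92677500, with 3341 and 3624 in CDP versus 1159 and 550 in MPP, a 4.07-fold higher mean (log2 ratio 2.12, SE 0.33, adjusted p = 0.000147). Both CDP libraries lay well above MPP. This element held 10.6% and 10.5% of the Runx1 window's signal in CDP, compared with 3.34% and 1.86% in MPP. Its values in the mature cells were close to those of CDP, with 4646 and 6293 in cDC, compared with 4179 and 4445 in CDP, and with 4298 and 5320 in pDC versus 3717 and 3989 in CDP, and none of its regions passed limma in these lists.

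The 2 Runx1 regions that fell in CDP were weaker. At chr16:92612351-92613650 the signal was 156 and 93 in CDP, compared with 514 and 605 in MPP (log2 ratio -2.20, SE 0.35, adjusted p = 0.000206). At chr16:92615101-92615600 it was 57 and 19 in CDP versus 160 and 143 in MPP (log2 ratio -2.16, adjusted p = 0.0143). CDP was lower in both libraries of each. The second call was lost at equal totals (adjusted p = 0.0522) and without the second-listed CDP library (0.0779), the first-listed MPP library (0.12) or the second-listed MPP library (0.108). Without either MPP library fewer of the 35 regions passed, as fewer did over the whole list. Neither place was listed in another comparison.

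Among 40 Runx1 regions in the list of cDC against CDP, 1 rose and 9 fell by limma, beside 7.64% and 14.4% of all regions. The median log2 ratio was -0.67, against -0.19 over the list, and 26 regions had both cDC libraries below both CDP libraries (36% of all regions). Besides the 3 elements above, chr16:92710351-92712400 had 156 and 223 in cDC, compared with 748 and 1034 in CDP (log2 ratio -2.23, adjusted p = 0.000239). At chr16:92713851-92714450 the signal was 4 and 37 in cDC versus 179 and 301 in CDP (adjusted p = 0.000235). Both lie on the low-coordinate side of the region with the largest loss, within 5 kb of its start, and the groups were separate at both. Without the first-listed or the second-listed CDP library fewer of the 40 regions passed, as fewer did over the whole list. The 2 elements just named were among those that still passed.

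The other falls in cDC were small regions that passed with less margin. They were chr16:92608601-92609250 with 58 and 55 in cDC, compared with 232 and 155 in CDP, chr16:92609751-92610200 with 38 and 39 in cDC versus 154 and 132 in CDP, chr16:92702301-92702800 with 68 and 93 in cDC, compared with 263 and 230 in CDP, and chr16:92785051-92785600 with 43 and 39 in cDC versus 160 and 252 in CDP. Adjusted p ranged from 0.0058 to 0.0313. Each of these calls was lost without either CDP library, with adjusted p from 0.0625 to 0.421. The first of them was also lost without either cDC library (0.0649 and 0.0539), and those at chr16:92609751-92610200 and chr16:92702301-92702800 without the first-listed cDC library (0.0619 and 0.0822).

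In pDC, 1 of 37 Runx1 regions rose over CDP and 10 fell by limma, beside 25.2% and 19.7% of all regions. The median log2 ratio was -0.34, against 0.03 over the list. Smaller regions fell in pDC beside the 3 elements. At chr16:92713851-92714350 the signal was 37 and 30 in pDC, compared with 130 and 245 in CDP (adjusted p = 0.0102), and at chr16:92702351-92702800 it was 34 and 38 in pDC versus 214 and 195 in CDP (adjusted p = 0.00456). At chr16:92785051-92785600 it was 25 and 22 in pDC, compared with 140 and 224 in CDP (adjusted p = 0.00483). Groups did not overlap at these 3, and the call at chr16:92713851-92714350 was lost without the first-listed pDC (0.0635), the second-listed pDC (0.075) or the second-listed CDP library (0.071). With any 1 of the 4 libraries left out, fewer of the 37 regions passed, as fewer did over the whole list.

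The other 4 falls in pDC were edges or small regions beside stronger ones. They were chr16:92699851-92700450 with 69 and 61 in pDC versus 225 and 153 in CDP, chr16:92711201-92712000 with 95 and 144 in pDC, compared with 225 and 331 in CDP, chr16:92818951-92819300 with 13 and 30 in pDC versus 99 and 108 in CDP, and chr16:92826451-92827400 with 414 and 471 in pDC, compared with 1068 and 974 in CDP. The last, the end of the broadest Runx1 element, fell with a log2 ratio of -1.21 (SE 0.23, adjusted p = 0.00578), and was lost without the first-listed pDC library (0.0583). The first 2 were lost without any of the 4 libraries (0.0584 to 0.221). The third was lost without the first-listed pDC library (0.102) or either CDP library (0.109 and 0.117).

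Other strong Runx1 elements differed by smaller ratios. The broadest, chr16:92820301-92827450, had 7651 and 12281 in cDC versus 9854 and 11587 in CDP, and 10221 and 11206 in pDC, compared with 9381 and 11089 in CDP. The groups overlapped both times, apart from the end of the element that fell in pDC. In the list of CDP against MPP its main region, chr16:92821551-92827400, had 8464 and 10200 in CDP versus 5858 and 5127 in MPP (log2 ratio 0.76, SE 0.33, adjusted p = 0.115), which passed at equal totals (adjusted p = 0.00141). CDP was above MPP in both libraries. The element at chr16:92696151-92699700 had 4347 and 6052 in cDC, compared with 5732 and 6706 in CDP (adjusted p = 0.631), and the groups overlapped. Its region between pDC and cDC, chr16:92696401-92699300, had 8209 and 7326 in pDC versus 4238 and 5842 in cDC, with separate libraries and a 1.54-fold higher mean that did not pass (adjusted p = 0.119). Over the whole element pDC was also above CDP in both libraries as listed, with 6979 and 6165 in pDC versus 4852 and 5780 in CDP. Both differences depend on the scaling. The log2 ratio of pDC over CDP was 0.31, where equal totals shift that list by -0.30. The log2 ratio of pDC over cDC was 0.62, where the shift is -0.48.

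Between pDC and cDC, 3 of 30 Runx1 regions rose in pDC and 2 fell by limma, beside 23.3% and 9.32% of all regions. At chr16:92710351-92711350 the signal was 587 and 674 in pDC versus 83 and 124 in cDC, a 6.04-fold higher mean (log2 ratio 2.62, SE 0.41, adjusted p = 0.00165). At chr16:92818301-92819750 it was 82 and 156 in pDC, compared with 630 and 1124 in cDC (log2 ratio -2.88, SE 0.47, adjusted p = 0.00195). These 2 regions therefore set pDC and cDC apart in opposite directions, with separate libraries at each. Both calls held when each of the 4 libraries was left out and at equal totals.

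At chr16:92803451-92805100 the signal was 823 and 1058 in pDC versus 240 and 332 in cDC (log2 ratio 1.72, adjusted p = 0.00595), and in the other list 718 and 903 in pDC, compared with 373 and 336 in CDP (log2 ratio 1.18, adjusted p = 0.00943). It was the only Runx1 region to rise in pDC over CDP by limma. Without the second-listed pDC library the adjusted p was 0.0938 against cDC and 0.086 against CDP, and against CDP it was 0.052 and 0.0587 without the first- or second-listed CDP library. At chr16:92818201-92819800 the signal was 667 and 1134 in cDC versus 420 and 388 in CDP (log2 ratio 1.11, adjusted p = 0.0479), the only rise in cDC, lost without the second-listed cDC (0.185), the first-listed CDP (0.268) or the second-listed CDP library (0.347).

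The last 2 calls between pDC and cDC concerned weak regions. At chr16:92807801-92808700 the signal was 378 and 524 in pDC, compared with 94 and 209 in cDC (adjusted p = 0.0287), lost without either pDC library (0.0842 and 0.236) or the first-listed cDC library (0.0895). At chr16:92672101-92672400 it was 5 and 27 in pDC versus 77 and 139 in cDC (adjusted p = 0.0335), lost without the first-listed pDC (0.209) or either cDC library (0.0969 and 0.157). Groups were separate at both. Without either pDC library or the first-listed cDC library fewer of the 30 regions passed, as fewer did over the whole list. Without the second-listed cDC library more passed, most of them as higher in pDC, and more did over the whole list. At equal totals 3 passed as higher in pDC and 7 as lower.

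**Figure D5:**
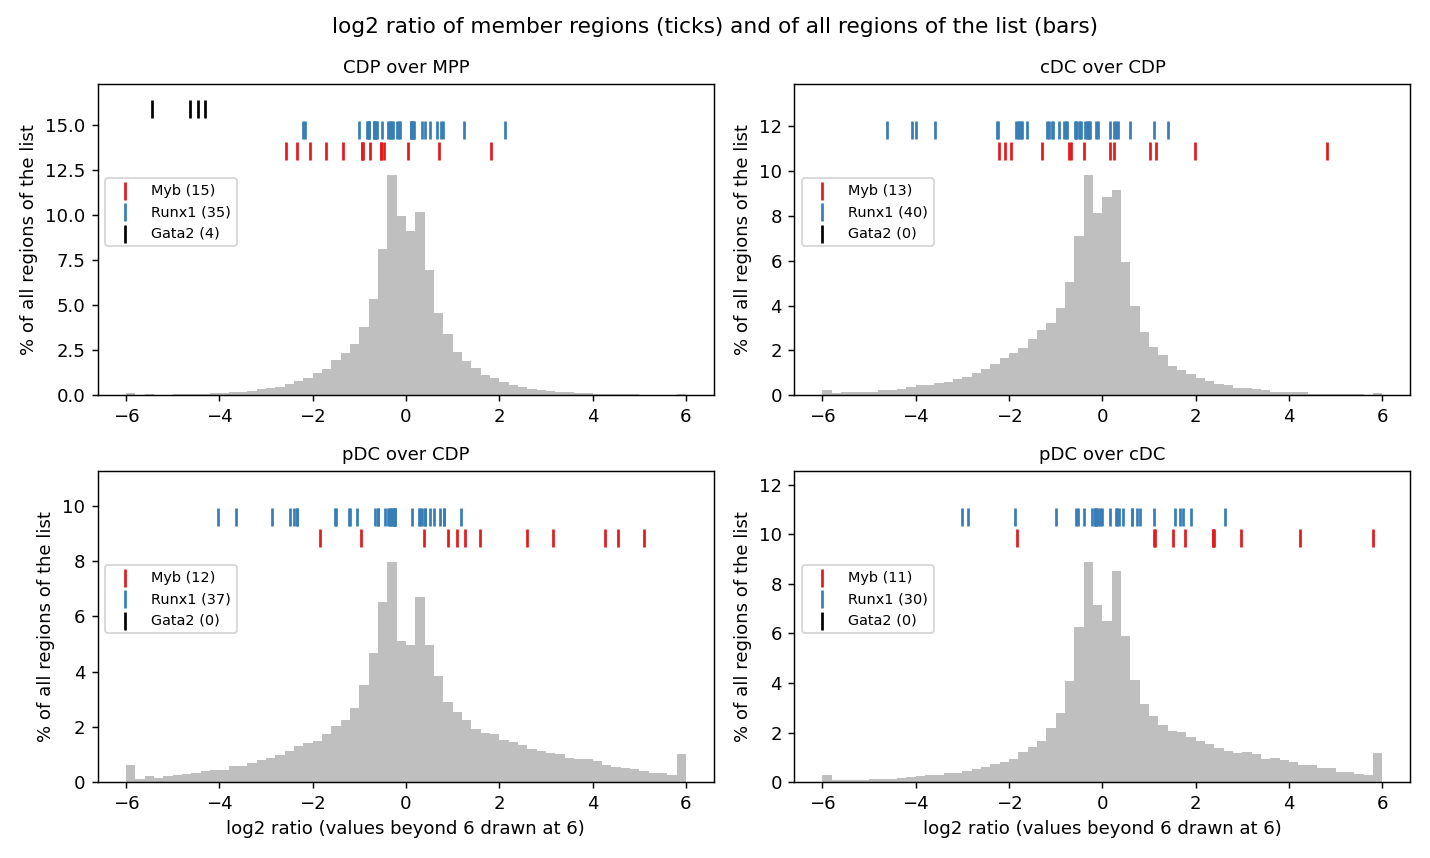
Distribution of the log2 ratio over all regions of each list (grey bars, % of regions) with the regions of the 3 windows as ticks above it (red Myb, blue Runx1, black Gata2). Gata2 ticks lie at the far low end for CDP over MPP, Myb ticks lie mostly above 0 for both pDC ratios, and Runx1 ticks spread over both sides in every list.

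By the direction that the authors gave each region, 3 of 15 Myb regions, 14 of 35 Runx1 regions and none of 4 Gata2 regions were higher in CDP than in MPP, beside 45.7% of that list. In cDC over CDP the counts were 6 of 13 at Myb and 7 of 40 at Runx1, beside 42.9%. In pDC over CDP they were 10 of 12 at Myb and 12 of 37 at Runx1, beside 50.2%, and in pDC over cDC 10 of 11 at Myb and 15 of 30 at Runx1, beside 57%. Gata2 elements were listed only between CDP and MPP. At Myb 6 of 16 elements appeared in all 4 lists, and at Runx1 12 of 36 did. Beyond the Myb window, the nearest listed region of CDP against MPP was chr10:21015151-21016950, 15.15 kb past its end, with 2763 and 2847 in CDP, compared with 4013 and 3170 in MPP. Past the Runx1 window, 31.55 kb away, chr16:92861551-92861950 had 188 and 113 in CDP versus 119 and 132 in MPP. In other lists some nearest neighbours had larger ratios at low signal. Before the Myb window chr10:20812951-20813400 had 173 and 145 in pDC, compared with 26 and 3 in cDC, and past the Runx1 window chr16:92848401-92848600 had 0 and 1 in pDC versus 81 and 41 in CDP.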

How the data were processed

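H3K27ac ChIP-seq was made from sorted MPP, CDP, cDC and pDC, with chromatin cut to 200 to 400 bp and 1 µg of antibody per immunoprecipitation, per the labels' protocols. The labels disagree on the supplier of the antibody. The 4 input and 4 RNA samples are not analysed here. Reads were aligned with BWA 0.6.1 to mm9, per the submitters' processing notes, and the series title names THOR as the differential peak caller. The deposited lists give, per region, the signal of the 2 libraries of both cell types as whole numbers scaled by the authors and a -log10 p from the authors, whose normalization is not given in the sources used here. The order of the cell types was taken from the list's name and checked: signals of 1 library in different lists differed by a constant factor of 0.878 to 1.24. A further unnamed column was not used.

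Regions were selected by overlap of 1 bp or more with the windows, using Python 3.11.15 and pandas 2.3.3. Window sums were compared as log2 ratios of group means plus 1, and regions with limma 3.58.1 in R 4.3.3, with an intensity trend and Benjamini-Hochberg adjustment over the whole list. In data simulated for each list, 20% of regions were raised in 1 cell type. Values were normal draws with variances from limma's own fit and no offset between libraries, so its assumptions held by construction. In these simulated data limma called 91.9% to 98.6% of regions raised by 3 on the log2 scale and 16.6% to 37.2% of those raised by 1. Real libraries need not meet these assumptions. Named regions were, per window and list, the 3 strongest, the 3 with the largest ratio among those with separate libraries and signal at or above the list's median, the longest, and all where there were 5 or fewer. Others that passed limma were added after their values were seen. The windows, members and groupings were chosen with earlier results of these data known. No mm9 genome or annotation was used, so sequences of regions, gene starts in mm9, the markers of each cell type and other genes that act with these factors are not analysed here. Alternatives covered library scaling, pseudocount, filters on signal, length and deposited p, the trend, and each library left out.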

Additional observations from a re-analysis of the deposited data

Results flagged for a closer look

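Merged elements numbered 16 at Myb, 36 at Runx1 and 4 at Gata2. At 5 of them both cDC libraries lay on the opposite side of the CDP libraries from both pDC libraries. The share of such elements over the whole lists was not computed. Separation in 1 direction is common: both cDC libraries lay below both CDP libraries at 36% of all regions. Both pDC libraries lay above both CDP libraries at 39.7%. The regions behind the cDC and pDC ratios shared bases at 4 of the 5. The ratios share their CDP libraries, and the elements were picked for this opposition. By limma, chr16:92818201-92819800 passed against CDP in cDC and in pDC, chr16:92803101-92805100 in pDC only, and the other elements in neither. The values and limma adjusted p-values of pDC over cDC given beside them come from the same cDC and pDC samples, so they describe these elements and are no independent test of the difference. Ratios over CDP are log2 ratios of group means, whereas those of pDC over cDC are limma estimates, so their sizes are not directly comparable.

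At Myb, chr10:20870951-20871650 had a log2 ratio of -1.13 for cDC over CDP and 0.95 for pDC over CDP, but these come from stretches of 0.2 kb and 0.4 kb that do not overlap, so no opposite change of the same bases is shown. Its region between pDC and cDC gave 149 and 221 in pDC versus 6 and 77 in cDC (adjusted p = 0.0542, not passing). At Myb, chr10:20920051-20921200 had 1.04 for cDC over CDP and -1.05 for pDC over CDP, and pDC over cDC was -1.84 (adjusted p = 0.0081). At Runx1, chr16:92803101-92805100 had -0.45 for cDC over CDP and 1.19 for pDC over CDP, and pDC over cDC was 1.72 (adjusted p = 0.00595). At Runx1, chr16:92807801-92808750 had -0.74 for cDC over CDP and 0.84 for pDC over CDP, and pDC over cDC was 1.66 (adjusted p = 0.0287). At Runx1, chr16:92818201-92819800 had 1.15 for cDC over CDP and -2.22 for pDC over CDP, the second from 0.35 kb of the 1.6 kb element, and pDC over cDC was -2.88 (adjusted p = 0.00195).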

How the results depend on the processing

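No paired analysis was possible because the columns of the lists carry no replicate numbers. With autosomal totals or medians set equal, the Myb log2 ratio of pDC over cDC was 1.54 and 1.58, the Runx1 ratio of pDC over CDP was -0.62 and -0.52, and the Runx1 ratio of pDC over cDC turned to -0.14 and -0.093. With a deposited -log10 p of 10 or more the Runx1 ratio of pDC over CDP was -0.51. Regions passing limma at equal totals were 3 of 15 at Myb in CDP over MPP (all lower), beside 22.3% of the list. They were 4 of 13 at Myb in cDC over CDP (3 higher, 1 lower), beside 25.4%. Runx1 had 18 of 37 in pDC over CDP (1 higher, 17 lower), beside 53.8%. It had 10 of 30 in pDC over cDC (3 higher, 7 lower), beside 49.1%. The main fit passed 19.4%, 22.0%, 44.9% and 32.6% of these lists. At equal medians 7 of 35 Runx1 regions passed in CDP over MPP (3 higher, 4 lower), beside 23.3% of the list. For Myb in cDC over CDP 6 of 13 passed (4 higher, 2 lower), beside 28.0%. For Runx1 in pDC over cDC 10 of 30 passed (3 higher, 7 lower), beside 48.1%. A pseudocount of 5 gave 7 of 13 for Myb in cDC over CDP (4 higher, 3 lower), beside 25.3% of the list. No intensity trend gave 3 of 15 for Myb in CDP over MPP, all lower, beside 12.4%. No call at Myb, Runx1 or Gata2 turned round under any setting run. At equal totals the uncalled ratios turned to -0.17 at chr16:92824701-92826450 (pDC over CDP), -0.17 at chr16:92822151-92823500 and -0.032 at chr16:92824651-92826550 (pDC over cDC), and with 1 library left out in turn the ratio at chr10:20878751-20879700 (cDC over CDP) ran from -0.11 to 0.61.

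With each library left out in turn, a lone library is assumed to vary like the others. Myb log2 ratios then ran from -1.22 to -0.69 (CDP over MPP), -0.20 to 0.43 (cDC over CDP), 1.76 to 2.37 (pDC over CDP) and 1.84 to 2.21 (pDC over cDC). Runx1 ratios ran from -0.070 to 0.17, -0.90 to -0.36, -0.39 to -0.25 and 0.064 to 0.62 in the same order, with 2 to 3, 5 to 11, 6 to 7 and 3 to 10 regions passing. The Gata2 ratio ran from -5.29 to -3.84, with 4 regions passing each time. The cause of these shifts was not tested. Read depth is unknown. With 2 libraries per cell type, limma did not call most differences of 1 on the log2 scale in the simulated data.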
